A study of Mus with 7 samples.

Results

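The response of DHA-treated macrophages to 1 h of lipopolysaccharide (LPS) was read from 2 single-cell RNA sequencing libraries, DHA.LPS.0 and DHA.LPS.1. The cells were fetal liver-derived macrophages (FLMs), a self-renewing line grown from C57BL/6J mouse fetuses with GM-CSF, which the study likens to inflammatory macrophages that arise from monocytes and which may differ from those of a given tissue. Both groups were wild type and received 25 µM of the omega-3 fatty acid docosahexaenoic acid (DHA) bound to 8.3 µM bovine serum albumin for 24 h in medium with 0.25% fetal bovine serum. DHA.LPS.1 then received 20 ng/mL LPS for 1 h in medium without DHA, and DHA.LPS.0 was collected at the end of the 24 h with no LPS. By the labels the medium was changed for the LPS step and not for DHA.LPS.0, so LPS, the change of medium and the removal of DHA cannot be told apart. The vehicle groups, Veh.LPS.0 and Veh.LPS.1, had the albumin alone and were otherwise handled alike. DHA.LPS.4, read for some levels below, had the same 24 h with DHA and then 20 ng/mL LPS for 4 h. The series held 7 libraries, 1 per condition, so no difference below has a replicate check, and every interval covers counting error only.

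Barcodes were kept as cells when they held over 20000 UMIs (unique molecular identifiers, 1 per captured transcript), at least 2000 genes and under 20% of UMIs from mitochondrial genes. This left 698 cells in DHA.LPS.0 and 795 in DHA.LPS.1, or 1493 of the 11640 cells kept in the whole series. The kept cells were 18.5% and 18.1% of the barcodes in the files, since 76.4% and 74.4% of the barcodes were at or above the mitochondrial limit of 20%. In the vehicle libraries 55.6% and 53.9% of barcodes were kept, so the DHA values describe a smaller share of the captured cells. The median cell held 46928 UMIs in DHA.LPS.0 and 37202 in DHA.LPS.1, and the totals were 35027812 and 31815789 UMIs. No barcode of a kept cell was shared between these libraries. All 9 macrophage markers were detected, every cell held at least 6 of them, and their summed level, scaled to counts per 1e6 UMIs of the library (CPM), was 5817 CPM at 0 h and 6113 CPM at 1 h. The marker lists of hepatocytes, lymphoid, dendritic, stromal and erythroid cells, mast cells and neutrophils summed to at most 6.82 CPM for any list in either library, and 0 cells held 3 markers of another cell type, which allows a share of up to 0.430% at 0 h and 0.377% at 1 h. With macrophages as the only cell type, the level of free RNA in the droplets could not be measured in cells that lack a gene.

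LPS is a cell wall component of Gram-negative bacteria that macrophages sense through CD14, MD-2 and Toll-like receptor 4. The receptor signals through MyD88 to MAP kinases and NF-κB, which first switch on genes that need no new protein: transcription factors of the AP-1 and EGR families, cytokines and chemokines, and the inhibitors that later shut the signal down. Omega-3 fatty acids are widely studied as dampers of that response.

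A gene was called higher or lower when its CPM, from the summed UMIs of all kept cells, differed by over 2-fold and 50% or more of the cells on either side held a UMI of it. Of 6315 genes that met this limit on cells, 159 were higher at 1 h (2.52%) and 37 were lower (0.586%). The differences were lopsided in size as well as in number: 62 genes were over 4-fold higher and 31 over 8-fold, against 4 genes over 4-fold lower. Together the 159 genes took 1.26% of all UMIs at 0 h and 5.29% at 1 h. Most of the transcriptome stayed near its level, with 4887 genes (77.4%) within 1.25-fold. The median log2 ratio over all genes tested was -0.11, and scaling by trimmed means (TMM) moved every log2 ratio up by 0.11. A gene with a log2 ratio between -0.11 and 0 therefore changes its sign with that scaling. Without the limit on cells, among genes with 10 UMIs or more in either library, 4.75% were higher and 4.82% were lower. The 2-fold limit falls inside a continuous range: Tfec and Slc7a1 were called at 2.01-fold each, while Srcap and Ccl3 were left out at 1.99-fold. At the other end Zfp329, at 0.493 of its level at 0 h, was called lower and Gpr183, at 0.507, was not.

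**Figure D1:**
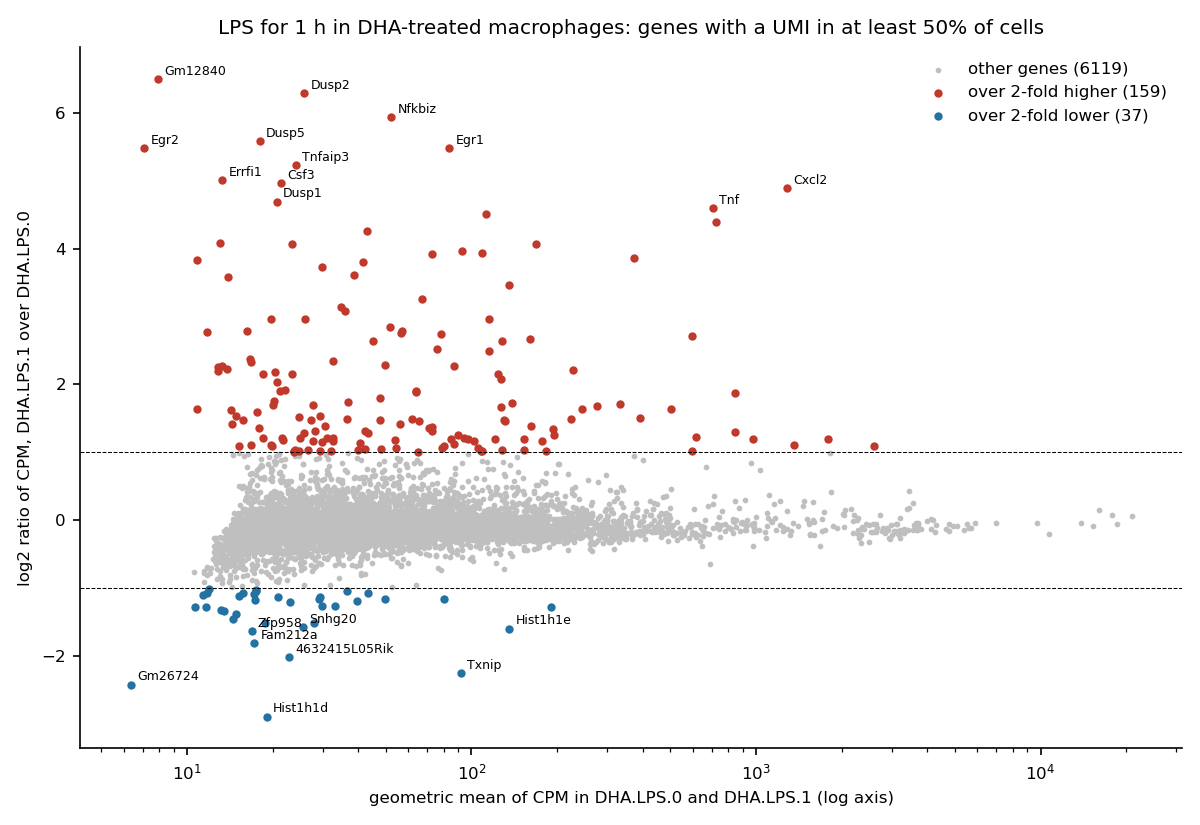
Log2 ratio of CPM (DHA.LPS.1 over DHA.LPS.0, y axis) against the geometric mean of the CPM of both libraries (x axis, log scale) for 6315 genes, 1 point per gene, with dashed lines at 2-fold. The 159 higher genes (red) reach a log2 ratio of 6.51 and the 37 lower genes (blue) reach -2.90, and the other genes lie in a band around -0.11.

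Among the 159 higher genes, the 12 largest ratios were those of Gm12840, Dusp2, Nfkbiz, Dusp5, Egr1, Egr2, Tnfaip3, Errfi1, Csf3, Cxcl2, Dusp1 and Tnf. Gm12840, a gene without a match in the RefSeq table, went from 0.828 to 75.3 CPM, which is 90.9-fold (95% interval 63.1 to 136). Dusp2 (chromosome 2, 127336159 to 127338377 in GRCm38.p6), a nuclear phosphatase that inactivates MAP kinases, was at 2.91 and then 229 CPM, 78.6-fold higher (64.6 to 96.5). Nfkbiz (chromosome 16, 55811375 to 55838954), an atypical IκB protein in the nucleus, went from 6.65 to 411 CPM, which is 61.8-fold (54.3 to 70.6). These genes were close to silent before LPS, with a UMI in 2.01%, 5.73% and 11.6% of cells thinned to 20000 UMIs each. At 1 h the same shares were 51.3%, 69.8% and 98.0%. Errfi1, an inhibitor of EGF receptor signaling, went from 2.34 to 75.7 CPM, and Csf3, the neutrophil growth factor G-CSF, from 3.83 to 119 CPM.

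Among 25 immediate-early genes, 21 met the limit on cells, 17 of these were higher and none was lower, against 2.52% and 0.586% of all genes tested. The counts of tested members in every list below stand against the same 2 shares. The median log2 ratio of the list was 2.67, against -0.11 for all genes. The zinc finger factors Egr1 and Egr2 had the largest ratios of the list. Egr1 went from 12.5 to 562 CPM, which is 45.0-fold (40.9 to 49.6). Egr2 went from 1.06 to 47.4 CPM, which is 44.9-fold, and Egr3 from 4.03 to 48.3 CPM. Of the AP-1 subunits, Junb went from 97.9 to 1426 CPM, Fosl1 from 11.8 to 103 CPM, Fos from 21.7 to 147 CPM and Jun from 64.0 to 406 CPM. Jund, which is made at a steadier level, was just past the limit, at 89.7 and 183 CPM. Ier3, a stress-induced survival factor, was the most abundant member, at 158 CPM without LPS and 3326 CPM with it. The 4 tested members that were not called were the Krüppel-like factors Klf2, Klf4 and Klf6 and the serum response factor Srf, whose ratios were 1.07, 0.772, 1.46 and 1.63. The thinned cells of DHA.LPS.0 held a UMI of 9 of the 25 genes in the median, with 5 to 12 from the 5th to the 95th percentile. In DHA.LPS.1 the median was 16 and this range was 12 to 19.

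The MAP kinase phosphatases split. Of 6 tested members, 4 were higher and 1 was lower. Dusp1, which acts on p38 and JNK, went from 4.05 to 105 CPM, which is 26.0-fold (21.9 to 30.9). Dusp5, a nuclear phosphatase for ERK, went from 2.60 to 125 CPM, and Dusp16 from 8.74 to 25.2 CPM. Dusp6, the cytoplasmic phosphatase for ERK, lay on the other side, at 21.6 CPM without LPS and 8.49 CPM with it, a ratio of 0.394 (0.341 to 0.453). Dusp4 had a ratio of 1.46. Outside the lists, Dusp7, a relative of Dusp6, was also among the 37 lower genes, at 0.457 of its level; it was picked after its value was seen.

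The genes of NF-κB and its inhibitors went up together, with 7 of 9 tested members higher, none lower, and a median log2 ratio of 1.32. Nfkbia, which encodes the IκBα protein that NF-κB itself induces, went from 233 to 1522 CPM, which is 6.54-fold (6.38 to 6.69). Nfkbid, another atypical IκB, went from 5.68 to 95.9 CPM. The subunits moved less: Rel was at 33.4 and 123 CPM, Nfkb1 at 44.1 and 114 CPM, Rela at 17.9 and 44.7 CPM, and Relb at 20.0 and 44.6 CPM. Nfkb2, at 16.2 and 24.3 CPM, and Nfkbib, at 35.4 and 63.0 CPM, were not called. Of 8 tested feedback regulators, 4 were higher and none was lower. They were Tnfaip3, the ubiquitin-editing enzyme A20 (3.94 to 149 CPM), its partner Tnip1 (28.6 to 79.7 CPM), the adaptor Traf1 (23.3 to 365 CPM) and the cytokine signaling inhibitor Socs3 (12.2-fold, to 135 CPM). The deubiquitinase Cyld was at 0.853 of its level. Of 6 tested genes for proteins that destroy cytokine mRNA, 3 were higher and none was lower. Zfp36, which encodes tristetraprolin, went from 40.7 to 448 CPM, and Zc3h12a, which encodes the RNase regnase-1, from 9.31 to 72.5 CPM.

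None of the 6 tested genes of the LPS receptor complex and its adaptors was called in either direction. Tlr4 itself was at 22.1 CPM without LPS and 16.4 CPM with it, Cd14 at 631 and 808 CPM, and Myd88 at 21.1 and 25.9 CPM. Tlr2, the receptor for bacterial lipopeptides, was closest to the limit, at 49.1 and 88.0 CPM.

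**Figure D2:**
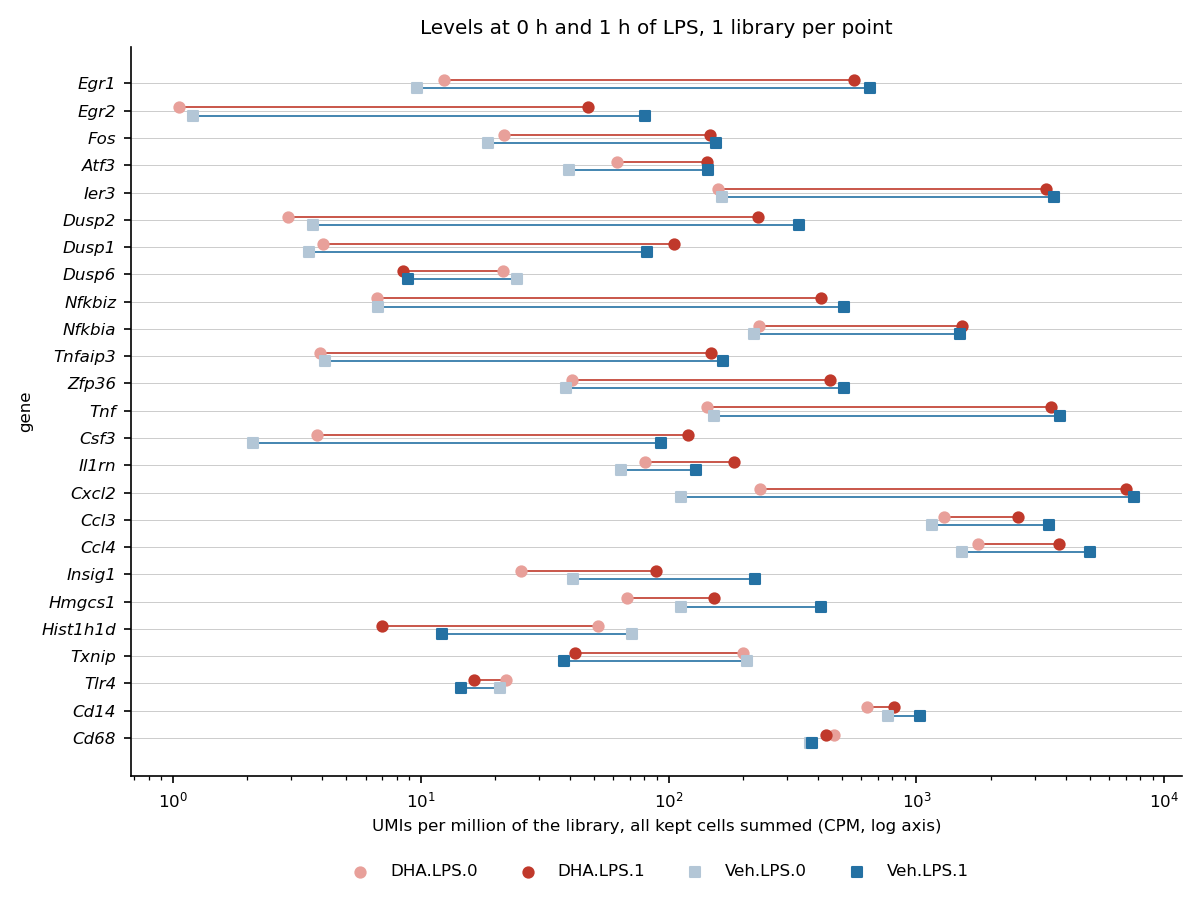
CPM of 25 genes (x axis, log scale) at 0 h and 1 h of LPS with DHA (circles) and with vehicle (squares), 1 library per point, with a line joining 0 h to 1 h. Dusp6, Hist1h1d, Txnip and Tlr4 run to the left in both treatments, Cd68 hardly moves, and Cxcl2 starts higher with DHA (235 CPM) than with vehicle (112 CPM).

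Of 19 cytokine genes, 7 met the limit on cells, and 6 of these were higher. Tnf (chromosome 17, 35199367 to 35202007), the first inflammatory cytokine macrophages release, went from 143 to 3482 CPM, which is 24.3-fold (23.6 to 25.0), and had a UMI in 73.8% of thinned cells without LPS and in all 795 with it. Csf3 had a ratio of 31.2 (26.3 to 37.4), and Osm, a cytokine of the IL-6 family, went from 8.22 to 109 CPM. Tnfsf9, Vegfa and Il1rn, the gene for the IL-1 receptor antagonist, had ratios of 2.80, 2.32 and 2.29. Il18 was not called, at 0.858 of its level. The IL-1 genes had only begun to appear. Il1a had 0 UMIs at 0 h and 172 UMIs in 35 cells at 1 h. That is 63.1-fold above a floor of 3 UMIs over the DHA.LPS.0 library. Il1b had 0 UMIs and then 98 UMIs in 16 cells, 36.0-fold above the same floor. The floor takes UMIs as independent, and these lay in few cells, so neither value is a lower bound. In DHA.LPS.4, after 4 h of LPS, Il1a was at 139 CPM and Il1b at 485 CPM, against 5.41 and 3.08 CPM at 1 h.

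Cxcl2 was the 1 CXC chemokine that met the limit on cells. Of 5 tested CC chemokines, 3 were higher. Ccl4 was at 1777 CPM without LPS and 3771 CPM with it, a ratio of 2.12. Ccl2, which attracts monocytes, was at 1187 and 2718 CPM, and its neighbor Ccl7 at 126 and 301 CPM. Ccl3 had 1292 and 2565 CPM and missed the limit, and Ccl9 was at 765 and 928 CPM. The RefSeq spans of Ccl3 and Ccl4 overlap on chromosome 11 (83647843 to 83649378 and 83648624 to 83664683), and whether this affected their counts was not tested. Cxcl2 (chromosome 5, 90903899 to 90905938), a neutrophil attractant, went from 235 to 7011 CPM, which is 29.9-fold (29.2 to 30.6), and was then in all 795 thinned cells with a median of 139 UMIs of 20000. Cxcl10 and Ccl5, which interferon also induces, stayed in few cells, with 12.8% and 5.53% of thinned cells at 1 h.

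Most Cxcl2 UMIs of DHA.LPS.0 lay in a small set of cells, which was picked out after its values were seen. Of the 698 cells, 50 (7.16%, exact binomial interval 5.36% to 9.34%) had at least 10 Cxcl2 UMIs among their thinned 20000, and they held 91.6% of the Cxcl2 UMIs of the library. Their mean was 2924 CPM, against 20.8 CPM in the other cells. The other chemokines were higher in the same cells: Ccl3 was at 3896 against 1066 CPM, Ccl4 at 3980 against 1496 CPM, and Ccl5 at 688 against 15.9 CPM. Of the fast genes, Nfkbiz was at 26.0 against 5.09 CPM and Egr1 at 11 against 11.7 CPM. Plin2, which coats lipid droplets and is a target of fatty acids, was at 1755 against 297 CPM, and Sqstm1, which encodes the autophagy receptor p62, at 1201 against 222 CPM. The 50 cells had a median mitochondrial share of 4.82%, against 7.57%. With these 50 cells left out at 0 h, the ratio of Cxcl2 was 341 (302 to 385); since they were chosen for Cxcl2 and taken from 1 side, that rise is fixed by the choice and is given as a description. The ratio was then 2.42 for Ccl3, 2.52 for Ccl4 and 29.4 for Tnf. These genes were also higher in the 50 cells, with Tnf at 491 against 118 CPM. Their ratios therefore had to rise as well, and they too are given as a description. In Veh.LPS.0, 84 of 2481 cells (3.39%) passed the same limit and held 84.0% of the Cxcl2 UMIs. They shared several of these traits. Ccl3 was at 3845 against 989 CPM, Ccl4 at 3440 against 1378 CPM, Plin2 at 207 against 60.0 CPM and Sqstm1 at 844 against 122 CPM. Other traits differed. Ccl5 was at 0 against 1.92 CPM, and the median mitochondrial share was 6.80% against 7.49%. Cxcl10 was at 2.38 against 5.99 CPM with vehicle and at 190 against 9.41 CPM with DHA. Ifit1 was at 0.595 against 0.375 CPM with vehicle and at 99 against 3.86 CPM with DHA. The part of these cells in the comparison of DHA with vehicle was not tested beyond those values.

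Surface molecules of activated macrophages were higher in 5 of 7 tested members, against 2.52% of all genes tested. Cd83 went from 12.4 to 105 CPM, the adhesion molecule Icam1 from 39.3 to 191 CPM, Sdc4 from 183 to 603 CPM, Clec4e, a receptor for mycobacterial lipids, from 231 to 660 CPM, and Plaur, the urokinase receptor, from 77.9 to 217 CPM. The costimulator Cd86 was at 31.5 and 29.3 CPM. Among 12 tested genes of cell survival and death, 5 were higher and none was lower, and both sides of the balance were present: the anti-apoptotic Mcl1 (439 to 1609 CPM) and Cflar (48.3 to 273 CPM), and the pro-apoptotic Bcl2l11 (19.3 to 139 CPM). Plk3 and Gadd45b had ratios of 6.87 and 2.08. The near-identical copies Bcl2a1a, Bcl2a1b and Bcl2a1d had ratios of 1.60, 1.62 and 1.36, and counts can be split between them.

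Of 6 tested members of the G-protein signaling list, 3 were higher. They were Gpr84, a receptor for medium-chain fatty acids (21.6 to 150 CPM), Rasgef1b (14.4 to 73.6 CPM) and Phlda1 (9.79 to 187 CPM). The paper does not group Phlda1 with G-protein signaling and describes it as high in inflammatory plaque macrophages. Without the limit on cells, 5 of 11 members with at least 10 UMIs were over 2-fold higher and 2 over 2-fold lower. The median log2 ratio of the list was 0.19. Rgs1, which speeds the shut-off of G proteins, was at 111 and 99.7 CPM. Of 4 tested interferon-response genes none was called. Without the limit on cells, 7 of 24 members with at least 10 UMIs in either library were over 2-fold higher, against 4.75% of all such genes. The list's median log2 ratio, over the 21 members with at least 10 UMIs in both libraries, was 0.15. It was 0.26 with TMM, -0.04 with no filter on barcodes, and -0.12 without the 5% of cells with the most UMIs of each gene. The gene of interferon β, Ifnb1, had 3 UMIs without LPS and 1 with it. Below the limit of 50% of cells, Irf1, a transcription factor that NF-κB induces, went from 4.31 to 25.3 CPM. None of the 3 tested enzymes that LPS induces was called. In fewer cells, Acod1, which makes itaconate, went from 4.20 to 36.4 CPM and was at 827 CPM after 4 h. Ptgs2, which encodes cyclooxygenase 2, went from 3.91 to 18.8 CPM and was at 373 CPM after 4 h.

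**Figure D3:**
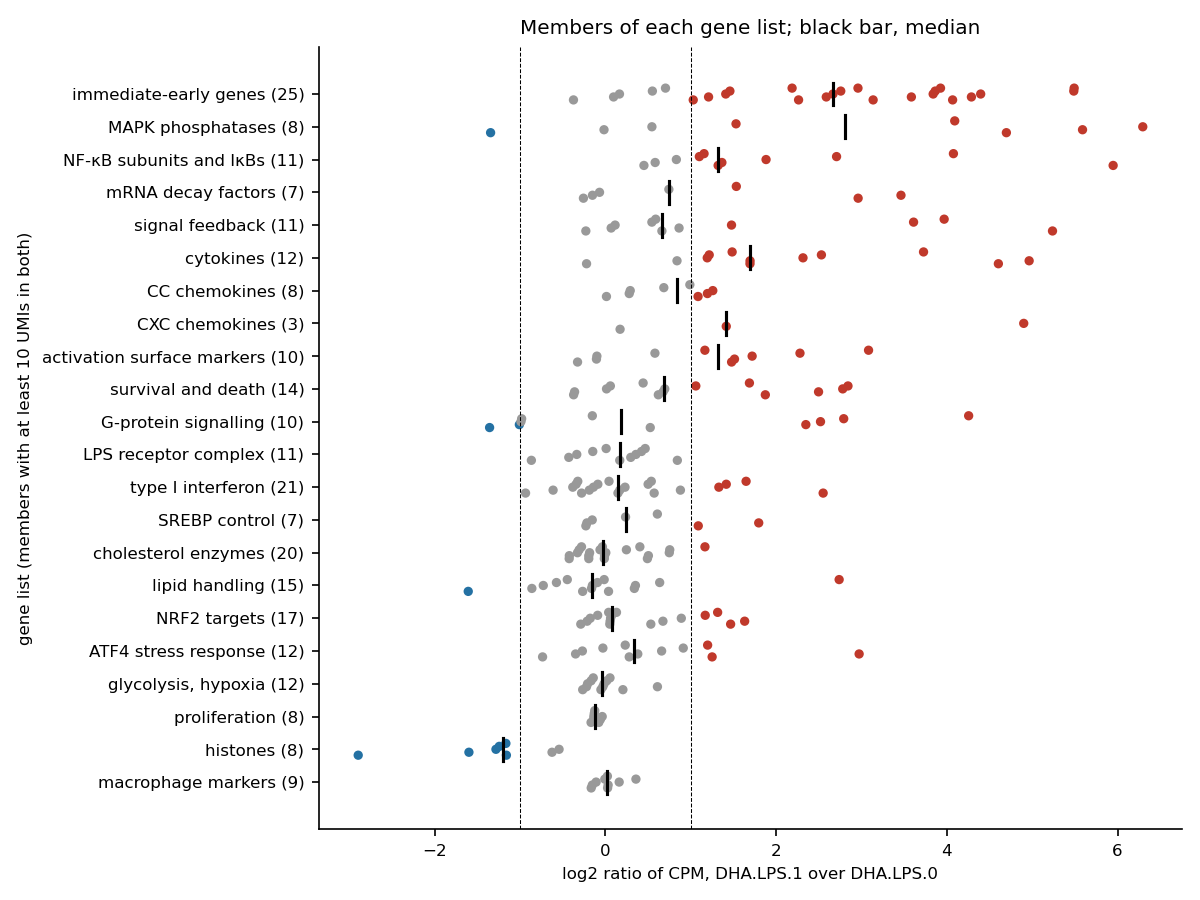
Log2 ratio of CPM (DHA.LPS.1 over DHA.LPS.0, x axis) for the members of 22 gene lists with at least 10 UMIs in both libraries, 1 point per gene, the number of members in brackets, a black bar at the median and dashed lines at 2-fold. Points past 2-fold are colored whatever their share of cells; the histones lie to the left with a median of -1.20 and the macrophage markers lie around 0.02.

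Lists of genes that fatty acids and stress act on held some of the higher genes, and the counts below stand against 2.52% of all genes tested; none of their tested members was called lower. Of 19 tested enzymes of cholesterol synthesis, which SREBP2 drives and polyunsaturated fatty acids restrain, Hmgcs1 alone was higher, at 68.0 CPM without LPS and 153 CPM with it. The median log2 ratio of the list was -0.02 and became 0.09 with TMM. Scd2, a fatty acid desaturase, was at 167 and 101 CPM. Of 6 tested genes of SREBP control, 2 were higher, among them Insig1, which holds SREBP back (25.5 to 88.7 CPM). Of 10 tested genes of lipid handling, Hilpda alone was higher, at 30.3 and 203 CPM, a ratio of 6.68 (6.25 to 7.13). It encodes an inhibitor of lipid droplet breakdown. Plin2 was at 419 and 530 CPM. Of 16 tested NRF2 targets, 4 were higher: Sqstm1 (286 to 887 CPM), the cystine transporter Slc7a11 (39.2 to 108 CPM), Srxn1 (26.8 to 66.6 CPM) and Txnrd1 (118 to 265 CPM). Hmox1, which encodes heme oxygenase 1, was at 172 and 275 CPM and was not called. Of 9 tested genes of the ATF4 stress response, Ppp1r15a (41.3 to 324 CPM) and Herpud1 (55.8 to 128 CPM) were higher, while Ddit3 was at 101 and 60.8 CPM. Those 2 do not do the same work: Ppp1r15a restarts translation, and Herpud1 serves the removal of misfolded proteins. None of 11 tested genes of glycolysis and hypoxia, of 8 of proliferation, of 13 encoded in the mitochondrion or of the 9 macrophage markers was called. The median log2 ratio of the proliferation genes was -0.13, and -0.02 with TMM, and those of the glycolysis and the mitochondrial genes, -0.04 each, turned to 0.07 with TMM.

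Among the 37 lower genes were linker and core histones, with 5 of 6 tested members of the list lower, against 0.586% of all genes tested. Hist1h1d was at 51.9 CPM without LPS and 6.98 CPM with it, a ratio of 0.134 (0.116 to 0.155). Hist1h1e was at 236 and 77.9 CPM, Hist1h1b at 296 and 122 CPM, Hist1h1c at 74.1 and 33.2 CPM, and Hist1h2ae at 120 and 53.5 CPM. Counts can be split between histone genes of similar sequence. Mki67, a marker of dividing cells, was at 344 and 316 CPM over the same interval. By their names, 6 of the 37 lower genes were histones (16.2%, against 0.111% of all genes tested) and 3 were Zfp zinc fingers (8.11%, against 0.839%). Txnip, which binds thioredoxin and slows glucose uptake, was at 200 CPM and then 41.9 CPM, a ratio of 0.209 (0.197 to 0.222). Its share of thinned cells was 87.4% without LPS and 36.4% with it. The long non-coding Gm26724 was at 14.7 and 2.73 CPM, 4632415L05Rik at 46.1 and 11.4 CPM, Fam212a at 32.3 and 9.21 CPM, Zfp958 at 29.8 and 9.55 CPM, and the small nucleolar RNA host gene Snhg20 at 44.1 and 14.8 CPM.

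The 159 higher genes were shorter than the rest. Of the 157 with a RefSeq entry, the median genomic span was 13.0 kb, against 23.3 kb for the genes tested, and 41.4% were under 10 kb, against 25.0%. The 28 lower genes with an entry had a median span of 11.8 kb, but 9 of the 37 had none. Whether span or level goes with the call was not tested.

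An early-response score was the summed UMIs of 87 genes in 7 lists (immediate-early genes, MAP kinase phosphatases, NF-κB, mRNA decay, cytokines, and CC and CXC chemokines) in cells thinned to 20000 UMIs. Its median was 94.0 UMIs at 0 h and 661 UMIs at 1 h. At 1 h, 27.2% of cells (24.1% to 30.4%) exceeded the 99th percentile of DHA.LPS.0, which was 800 UMIs. The limit turned on chemokines. Without the chemokine lists the limit was 109 UMIs and 97.0% of DHA.LPS.1 cells (95.5% to 98.1%) exceeded it, which left 24 of 795 cells under it. With the immediate-early list alone 97.1% did. With the chemokines alone 5.79% did. The same shares in Veh.LPS.1, each with the limit of Veh.LPS.0, were 69.4% for all 7 lists and 98.7% without chemokines. For all 7 lists the vehicle limit was 624 UMIs, lower than that with DHA, and the median score of Veh.LPS.1 was 731 UMIs. The shares of DHA and vehicle cells for all 7 lists are therefore not at the same limit.

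**Figure D4:**
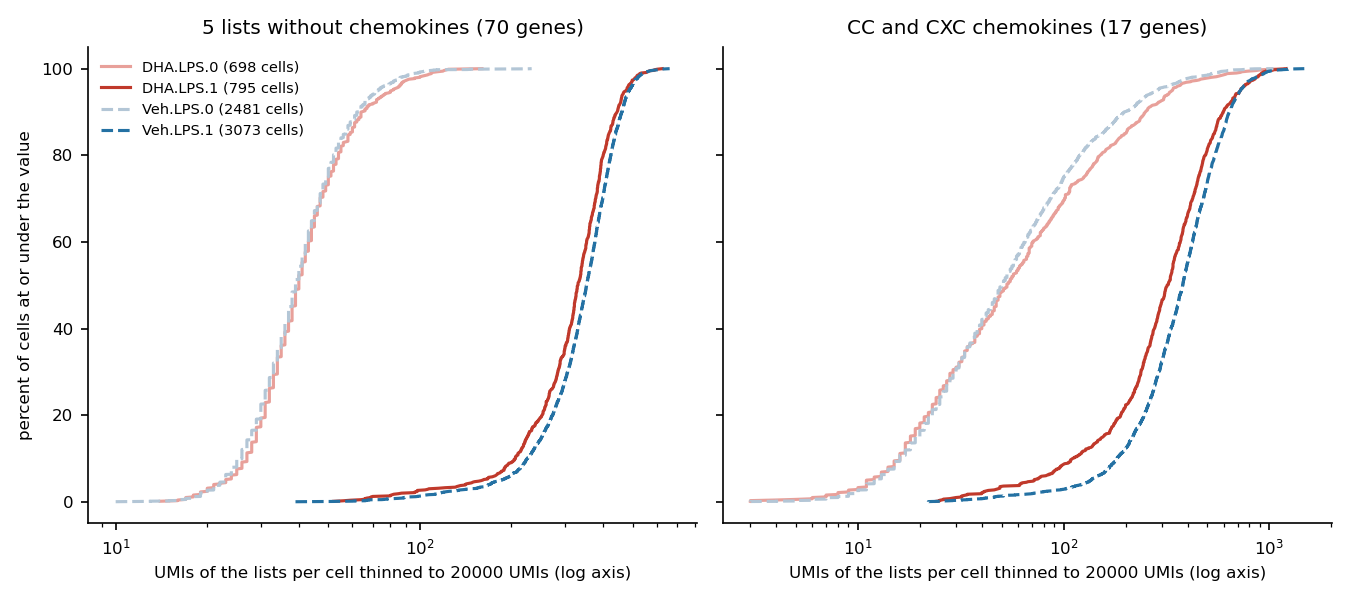
Cumulative percent of cells (y axis) against the summed UMIs of the early-response genes in each cell thinned to 20000 UMIs (x axis, log scale), for the 70 genes without chemokines (left) and the 17 chemokine genes (right), with DHA (solid) and vehicle (dashed). The curves at 0 h and 1 h overlap little on the left, with medians of 40.0 and 331 UMIs with DHA, and overlap more on the right, with 53.0 and 319 UMIs.

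Individual genes differed in how evenly the cells shared them. Nfkbia, Ier3 and Tnf were spread widely at 1 h, with 9.71%, 11.6% and 10.4% of their UMIs in the top 5% of cells. Csf3 was concentrated, with 40.8% of its UMIs there and a UMI in 46.9% of cells. Dusp2 lay between, at 26.2%, with a median of 2 UMIs in a thinned cell and 46 UMIs in the highest.

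The vehicle cells, read from other libraries, give the same comparison without DHA, with LPS again tied to the change of medium. In Veh.LPS.1 against Veh.LPS.0, 138 of 5777 genes were higher (2.39%) and 35 were lower (0.606%). Of the higher genes 126 were called in both treatments, which is 79.2% of the DHA list and 91.3% of the vehicle list. Of the lower genes 28 were shared, 75.7% and 80.0% of the lists. Some unshared genes missed only the limit on cells with vehicle. Csf3 was 43.9-fold higher, with a UMI in 45.9% of Veh.LPS.1 cells, and Zfp329 was at 0.443 of its level, in 46.8% of Veh.LPS.0 cells. Others missed the fold limit, such as Mat2a at 1.99-fold. Vehicle cells were shallower, with medians of 36897 UMIs in Veh.LPS.0 and 29369 in Veh.LPS.1. Every one of the 159 was over 1.5-fold higher with vehicle as well, and every one of the 37 was under the inverse of 1.5-fold. In a wider set of 353 genes, found in 25% or more of the cells of 1 of the 4 libraries and past 2-fold in either treatment, the ratio with DHA was within 1.25-fold of the ratio with vehicle for 256. It was smaller by over 1.5-fold for 20 and larger for 8. With 1 library a group, none of these differences between treatments was tested.

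Some of the smallest responses with DHA went with a higher level before LPS. Mt2, a metallothionein that binds zinc, was at 268 and then 515 CPM with DHA, against 69.6 and 484 CPM with vehicle, so the levels at 1 h were close and those at 0 h were not. The DHA response was 0.276 of the vehicle response (0.267 to 0.287). Acod1 had a ratio of 8.67 with DHA and 26.2 with vehicle, and Mir155hg, the host gene of a microRNA that macrophages induce with LPS, 23.2 and 59.4. For the G-protein regulators the ratios lay on opposite sides of 1, though that of Rgs1 with DHA was 0.900, near 1. Rgs1 was at 111 and 99.7 CPM with DHA and at 94.2 and 243 CPM with vehicle, and Rgs2 at 42.3 and 16.5 CPM with DHA and at 35.1 and 48.5 CPM with vehicle. Cxcl2 had a ratio of 29.9 with DHA and 67.1 with vehicle, with levels of 7011 and 7543 CPM at 1 h. Egr1 reached 562 and 648 CPM, and Hmgcs1 153 and 412 CPM. Tnf did not part the treatments, with ratios of 24.3 and 24.9.

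The 5 genes whose ratio with DHA was highest relative to vehicle were Hist1h2ap, Irf1, Tnfrsf1b, Rab20 and Id3. Hist1h2ap was lower in both treatments and less so with DHA, at 0.687 of its level against 0.355 with vehicle. Irf1 had ratios of 5.86 and 3.31, Tnfrsf1b, which encodes a TNF receptor, 2.24 and 1.30, Rab20 2.78 and 1.66, and Id3 61.5 (37.7 to 108) and 37.1, the last from 16 UMIs at 0 h. Hilpda was at 30.3 and 203 CPM with DHA and at 13.0 and 53.9 CPM with vehicle.

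**Figure D5:**
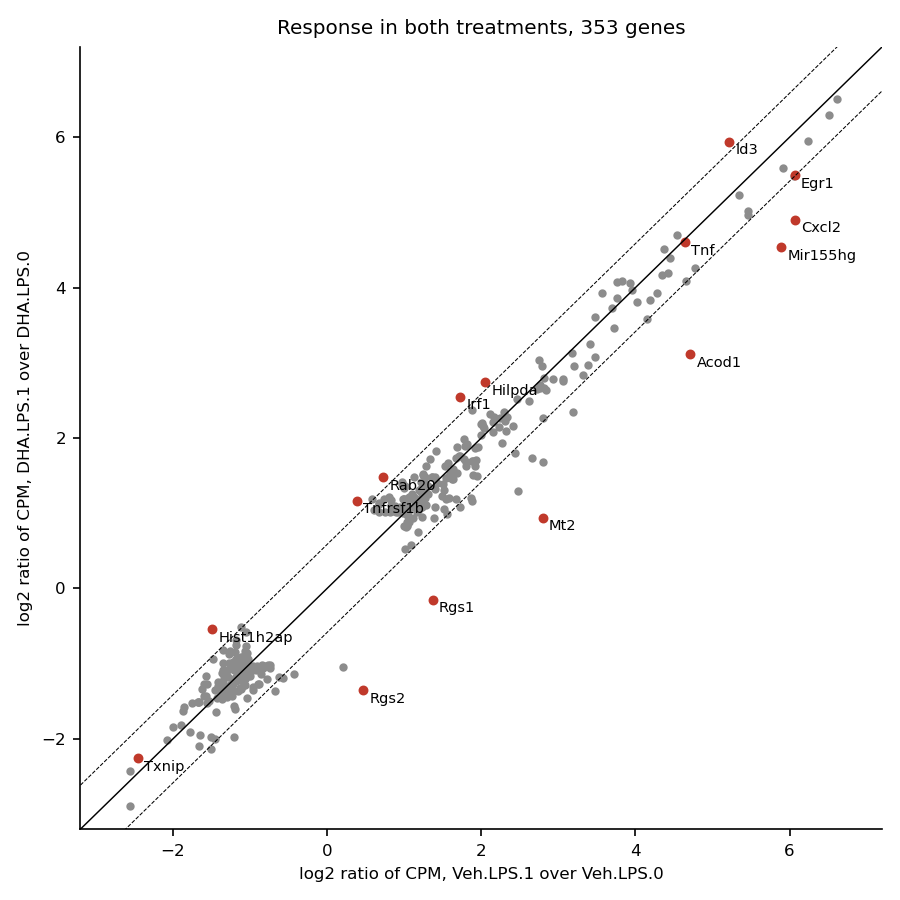
Log2 ratio at 1 h of LPS with DHA (y axis) against that with vehicle (x axis) for 353 genes, 1 point per gene, with the line of equality and dashed lines at 1.5-fold from it; named genes are red. The points follow the diagonal, with Rgs1, Rgs2, Mt2, Acod1 and Mir155hg under it and Hist1h2ap, Irf1, Rab20 and Tnfrsf1b above it.

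The levels of DHA cells after 4 h of LPS were read against the same DHA.LPS.0 library. DHA.LPS.4 kept 692 cells, 12.1% of its barcodes, since 80.0% were at or above the mitochondrial limit. Its median cell held 29631 UMIs, against 46928 in DHA.LPS.0. The summed level of the immediate-early list was 999.6 CPM without LPS, rose to 8143 CPM at 1 h and stood at 2938 CPM after 4 h. Egr1, at 10.5 CPM, and Fos, at 6.17 CPM, were under their levels without LPS. Dusp2, at 11.3 CPM, and Dusp1, at 13.7 CPM, were still above theirs, and Nfkbiz (128 CPM), Dusp5 (36.8 CPM), Gm12840 (49.4 CPM) and Ier3 (1497 CPM) were 19.2-fold, 14.2-fold, 59.7-fold and 9.48-fold above theirs. Dusp6 was at 31.9 CPM, above its 21.6 CPM without LPS. Tnf was at 1864 CPM, lower than at 1 h, whereas Cxcl2 (11764 CPM), Ccl2 (12407 CPM), Ccl3 (10751 CPM) and Csf3 (2305 CPM) were at higher levels than at 1 h. Hist1h1d was at 14.7 CPM and Txnip at 93.4 CPM, both between their levels at 0 h and 1 h.

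The ratios were also read by mitochondrial share. In the 116 DHA.LPS.0 and 153 DHA.LPS.1 cells under 6% mitochondrial UMIs, Cxcl2 was at 1224 CPM at 0 h and 8935 CPM at 1 h, a ratio of 7.30. In the cells from 6% to 8% it was at 40.1 and 6827 CPM, a ratio of 170. In the 250 and 245 cells from 8% to 20% it was at 44.2 and 6144 CPM, a ratio of 139. Over the same 3 strata, from the lowest share up, Tnf had ratios of 12.6, 30.1 and 28.6 and Nfkbiz of 34.7, 76.0 and 66.8. Egr1 had ratios of 39.4, 44.0 and 49.7, Zfp36 of 8.42, 12.7 and 10.5 and Dusp2 of 75.3, 93.2 and 63.2. Those of Ccl4 were 1.83, 2.18 and 2.22. Of the higher genes with at least 10 UMIs on both sides, 107 of 156, 154 of 158 and 148 of 157 passed 2-fold. The 50 DHA.LPS.0 cells with at least 10 Cxcl2 UMIs described above had a median mitochondrial share of 4.82%. They held 91.6% of the Cxcl2 UMIs of that library, so the stratum under 6% overlaps with them at 0 h. The part of the mitochondrial share and of those cells in these ratios was not tested.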

How the data were processed

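Cells were captured with the 10x Chromium 3′ system. The deposited UMI counts per gene and barcode were made by the authors with Cell Ranger 3.1.0 per the labels, on mm10. Here barcodes were filtered as described above, the counts of each library were summed and scaled to CPM, and ratios were given exact binomial 95% intervals. With 1 library per condition no test across genes was possible, and intervals cover counting error only. For shares of cells and scores each cell was thinned to 20000 UMIs; no kept cell was shallower. No doublet caller was run; the 5% of cells with the most UMIs were left out as an alternative. The scripts recovered known folds in simulated counts. These were independent draws per library with no spread between cells, so they check the calculation and not whether the intervals are wide enough. Named genes were the 12 highest and 8 lowest ratios among called genes, up to 4 members of each list by size of ratio with the others needed to account for it, and the 5 largest and 5 smallest responses relative to vehicle. The members, the 31 gene lists and the limits were chosen with earlier results of these data known. Coordinates and spans are from RefSeq, GRCm38.p6. Alternatives used TMM, median-of-ratios factors, SCTransform (sctransform 0.4.2 in Seurat 5.3.0, R 4.3.3), and other limits on barcodes, cells and genes. Scripts ran in Python 3.11.15 with scipy 1.17.1. A few genes of the lists are not reported here.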

Additional observations from a re-analysis of the deposited data

Results flagged for a closer look

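Rgs2, Rgs1 and Gm49207 had ratios under 1 with DHA and over 1 with vehicle. The DHA response over the vehicle response had an interval of 0.253 to 0.315, 0.330 to 0.367 and 0.325 to 0.549, in that order. Each excludes 1 by counting error alone, which takes UMIs as independent. It concerns the difference between the responses and not the direction within a treatment. The UMIs were unevenly shared. The top 5% of cells held 68.5% of the Rgs2 UMIs of DHA.LPS.1 and 44.4% of those of Veh.LPS.1. For Rgs1 these shares were 35.3% and 19.7%. Rgs2 was at 0.391 of its level without LPS in DHA cells and at 1.38-fold in vehicle cells. Rgs1 was at 0.900 of its level with DHA, which is near 1, and at 2.58-fold with vehicle. Gm49207, with 6.91 and 3.36 CPM in DHA cells, had a ratio of 0.487 with DHA and 1.15 with vehicle. The difference between treatments was not tested, since each ratio compares 1 library with 1 library.

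The barcodes left out for a mitochondrial share of 20% or more, 2884 in DHA.LPS.0 and 3269 in DHA.LPS.1, held the same signal above the level of their own 0 h barcodes. In them Tnf had a ratio of 41.0 (39.9 to 42.2), from 179 to 7341 CPM, Cxcl2 a ratio of 107 (103 to 110) and Dusp2 a ratio of 78.2 (58.3 to 107). All 159 higher genes were above 1 there, 147 of them over 2-fold, and all 37 lower genes were under 1.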

How the results depend on the processing

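Against 159 higher and 37 lower genes, SCTransform-corrected counts with a pseudocount of 1 gave 83 and 5, which were among the 159 and the 37. The share of higher calls moved from 81.1% to 94.3%. The pseudocount was added to the mean count per cell, which draws the ratios of genes at low counts toward 1. How much of the change goes with it was not tested. With no filter on barcodes the counts were 83 and 7. There the limit on cells was applied over all barcodes. Those with a mitochondrial share of 20% or more had a median of 9603 UMIs in DHA.LPS.0 and 8310 in DHA.LPS.1. In those barcodes alone 147 of the 159 and 34 of the 37 passed 2-fold. The part of the limit on cells in the smaller counts was not tested. Limits of 1.5-fold gave 308 and 172, and at least 10 UMIs with no limit on cells gave 563 and 571. A limit of 25% of cells gave 110 lower genes, and leaving out the 5% of cells with the most UMIs of each gene, an alternative chosen after seeing the data, gave 74. TMM, median-of-ratios factors, thinning, a total without mitochondrial genes, 10% mitochondrial UMIs, 10000 UMIs per barcode and leaving out the 5% of cells with the most UMIs gave 157 to 188 higher and 28 to 39 lower genes. The share of cells over the early-response limit, 27.2%, was 89.4% at the 95th percentile and 11.9% without the immediate-early list. Among alternatives chosen after seeing the data, it was 97.0% without chemokines and 56.2% with the vehicle limit. Of the 112 named genes none that was called changed its direction. Of those not called, 3 did with no filter on barcodes and 1 without the cells with the most UMIs of each gene. Sizes were less steady. The ratio left its counting interval for 95 genes with SCTransform, where the pseudocount acts as well. It did for 59 with median-of-ratios factors, 54 with TMM and 52 with no filter on barcodes. Without the cells with the most UMIs of each gene, 66 did and 28 did not. The rest of the 112 had no finite ratio there and were not compared, for size or for direction. With thinning 17 did, and with a total without mitochondrial genes 0 did. No paired analysis was possible because each condition was 1 library. Depth limits rare transcripts: 3 UMIs in DHA.LPS.0 are 0.0856 CPM.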
